A study of Mus musculus with 2 samples.

Results

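A set of 10 protein-coding genes beside Alkbh5 on mouse chromosome 11 was followed through 2 single-cell RNA libraries of adult testis, 1 from WT mice and 1 from Alkbh5-/- (KO) mice. The genes were Tom1l2, Atpaf2, Gid4 and Drg2 on the side of lower coordinates and Llgl1, Flii, Mief2, Top3a, Smcr8 and Shmt1 on the side of higher coordinates. They were chosen by position, though with earlier results of these data known, and not every gene lying among them was included. All 10 were found among the 36547 gene symbols of the 2 tables. Position was the criterion because a targeted allele, or DNA of another strain carried along with it, can change genes near the target, and each cell class offers its own reading of such a change.

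Both libraries came from testes of 12-week-old mice labelled C57BL/6, and the KO mice were homozygous offspring of heterozygous parents. The methods name 3 mice of each genotype, whereas the study's overview speaks of 1 mouse each, so a library may pool animals. The deletion's design and the strain of the cells in which it was made are not given in the sources used here, and whether the WT mice were littermates is not given either. With 1 library per genotype, no difference between WT and KO below has a replicate check, and every interval covers counting error only.

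ALKBH5 is an RNA demethylase that removes N6-methyladenosine, a methyl mark on adenosines of mRNA. Knockout alleles can be made in embryonic stem cells of one mouse strain and bred into another, after which genes linked to the target keep the donor strain's variants until recombination separates them. Adjacent genes can also share a promoter, run into each other at their ends or lose regulatory DNA with the target, which makes the immediate neighbourhood the first place to look. In the testis, spermatogonia divide and enter meiosis as spermatocytes, whose products mature as round and then elongating spermatids beside Sertoli and Leydig cells.

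The 10 genes occupy a compact stretch. On GRCm38, Tom1l2 runs from 60226714 to 60352905 on the minus strand, Atpaf2 from 60400626 to 60418457 on the minus strand, Gid4 from 60417145 to 60450927 on the plus strand and Drg2 from 60454591 to 60468754 on the plus strand. Alkbh5 itself runs from 60536381 to 60558512 on the plus strand. Beyond it lie Llgl1 (60699723 to 60714186, plus), Flii (60714123 to 60727263, minus), Mief2 (60728398 to 60732951, plus), Top3a (60740058 to 60777365, minus), Smcr8 (60777524 to 60788287, plus) and Shmt1 (60788104 to 60811718, minus). The nearest of them, Drg2, ends 67.6 kb from Alkbh5, and the farthest, Shmt1, begins 0.230 Mb from it. Atpaf2 and Gid4 overlap head to head by 1313 bases in the longest annotated transcripts, Llgl1 and Flii overlap by 64 bases at their ends, and Smcr8 and Shmt1 overlap by 184 bases at theirs. The starts of Top3a and Smcr8 lie 159 bases apart. Whether reads were counted by strand is not given in the sources used here, so reads from an overlap cannot be assigned with certainty to one of its 2 genes.

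RefSeq promoter windows on GRCm38.p6, each holding 250 bases before and 50 bases after a gene's start, were found for 8 of the 10 genes; Top3a and Smcr8 had none in the table used here. The windows of Gid4 and Atpaf2 share 210 bases on opposite strands, and they are printed because these genes gave different KO/WT ratios in the same cells, as described below. Capitals mark the GC box GGGCGG, searched on both strands, which reads CCGCCC on the other strand. The Gid4 window is chr11:60416895-60417194 on the plus strand and the Atpaf2 window is chr11:60416985-60417284 on the minus strand.
Gid4: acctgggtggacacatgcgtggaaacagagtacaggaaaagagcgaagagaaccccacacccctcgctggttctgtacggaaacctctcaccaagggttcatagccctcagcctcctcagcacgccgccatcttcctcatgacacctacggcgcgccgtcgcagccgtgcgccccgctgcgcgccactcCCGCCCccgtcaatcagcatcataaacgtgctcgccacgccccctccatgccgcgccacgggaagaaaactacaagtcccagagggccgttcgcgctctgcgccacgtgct
Atpaf2: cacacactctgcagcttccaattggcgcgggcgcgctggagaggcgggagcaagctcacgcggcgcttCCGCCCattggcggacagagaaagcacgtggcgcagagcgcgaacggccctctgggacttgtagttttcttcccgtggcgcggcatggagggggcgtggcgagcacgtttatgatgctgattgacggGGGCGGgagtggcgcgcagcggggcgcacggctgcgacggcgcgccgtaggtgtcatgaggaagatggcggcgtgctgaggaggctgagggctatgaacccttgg
A GC box was present in 7 of the 8 windows and in 35.7% of all 32851 promoter windows. The 8 windows held from 16 to 35 CpG dinucleotides, against a median of 7 over all windows. The cAMP response element TGACGTCA was in 0 of the 8 windows, compared with 1.79% of all.

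Each deposited value was the number of unique molecular identifiers (UMIs), that is of captured RNA molecules, per gene and cell barcode. The WT library held 5756 barcodes and 80283221 UMIs and the KO library 7012 barcodes and 82056760 UMIs, and 45 barcode sequences occurred in both. Cells were grouped into 17 clusters, and marker genes named 16 of them. One cluster of 346 WT and 337 KO cells, led by Gm14459, Gm9973 and Ssxb1, went without a name because its leading genes went against its markers. Cell shares differed widely: spermatogonia were 190 WT and 1064 KO cells, Leydig cells 94 and 1171, Sertoli cells 48 and 468, and elongating spermatids 2404 and 1311. Late spermatocytes (705 and 661 cells) were 12.2% of WT and 9.43% of KO cells, and round spermatids (1907 and 1774 cells) were 33.1% and 25.3%. UMIs were summed by library and class and expressed per 1000000 UMIs of that sum (CPM), with exact Poisson 95% intervals. A gene entered a ratio in a class when both sums together held at least 50 of its UMIs.

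The targeted gene was read first. Alkbh5 had 607 UMIs in the WT library and 5 in the KO library, or 7.56 CPM (6.97 to 8.19) and 0.0609 CPM (0.0198 to 0.142). Its level in WT was 67.3 CPM in spermatogonia, 18.8 in late spermatocytes, 3.42 in round spermatids and 24.1 in Leydig cells. In KO those classes held 1, 0, 3 and 0 of its UMIs. The libraries therefore differed at the target in the direction of their labels.

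In the whole libraries, 5 of the 10 neighbours were at least 2-fold higher in KO, 0 were at least 2-fold lower, and the background of all genes was 30.9% higher and 2.59% lower. The 5 genes were Llgl1 at a log2 KO/WT ratio of 3.27 (2.57 to 4.06), Mief2 at 3.17, Tom1l2 at 2.80, Flii at 2.06 and Shmt1 at 1.09. Over the 10 genes the median log2 ratio was 0.97, against 0.31 over all genes. These sums mix a change in cell shares with a change within cells, and a sum over a library cannot tell fewer cells of a class from less RNA per cell.

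The KO cluster levels were therefore weighted by the share of each cluster in the WT library, over 16 clusters with at least 20 cells in both. This weighting, which sets both libraries to the WT makeup, was chosen after seeing the data. At the WT makeup 2 of the 10 neighbours stayed at least 2-fold higher, Llgl1 at a log2 ratio of 1.33 (0.58 to 2.07) and Tom1l2 at 1.06 (0.47 to 1.64). The background was then 7.14% higher and 8.61% in either direction. The log2 ratio of Flii was then 0.06 (-0.28 to 0.40) and that of Mief2 0.65 (-0.12 to 1.41), both with intervals that included 0. The median of the 10 genes was 0.24, compared with 0.11 over all genes. Alkbh5 kept its ratio, at -6.99. With equal weight per cluster instead, the log2 ratio of Tom1l2 was 0.40, under 2-fold.

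**Figure D1:**
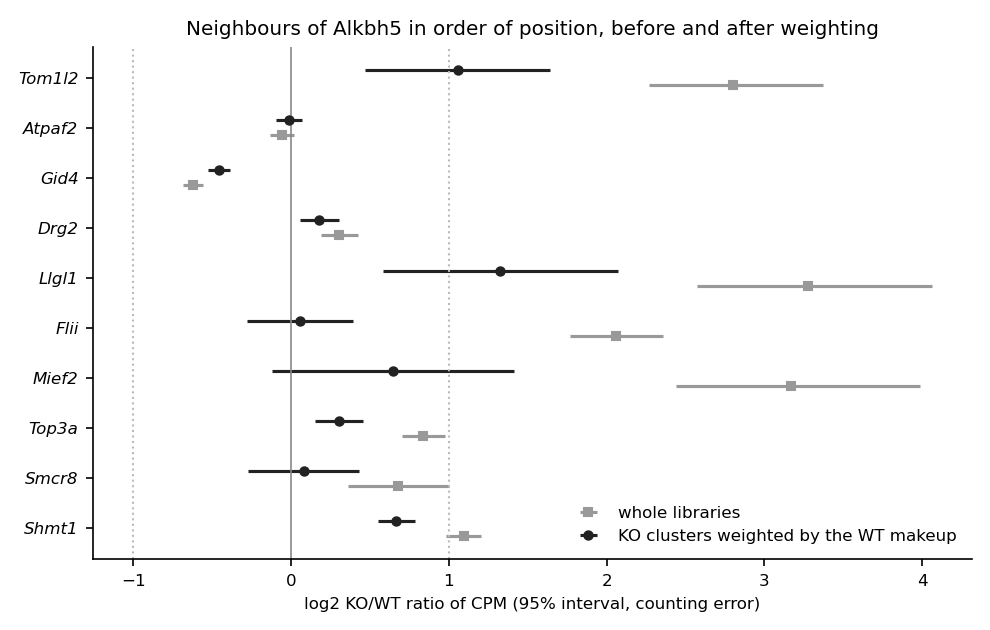
Log2 KO/WT ratio of CPM (horizontal axis) of the 10 neighbours in order of position (vertical axis), for whole libraries (grey squares) and with KO clusters weighted by the WT makeup (black circles); bars are 95% intervals for counting error and dotted lines mark 2-fold. Llgl1, Mief2, Tom1l2 and Flii lay between 2.06 and 3.27 in whole libraries and between 0.06 and 1.33 after weighting, whereas Gid4 was below 0 both times.

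Gid4 was at a lower level in KO in late spermatocytes and in spermatids. It encodes the substrate receptor of the GID/CTLH ubiquitin ligase, which recognises proteins by their first residues. In round spermatids it had 2284 UMIs in WT and 1358 in KO, or 69.7 CPM (66.9 to 72.6) and 48.7 CPM (46.2 to 51.4), a log2 ratio of -0.52 (-0.61 to -0.42). In elongating spermatids it was at 67.1 CPM (64.0 to 70.4) in WT and 49.8 CPM (46.1 to 53.7) in KO, a log2 ratio of -0.43. Neither pair of intervals overlapped. Over all counted genes, the interval of the ratio lay below 0 in 23.0% in round spermatids and 15.8% in elongating spermatids. Late spermatocytes showed a smaller difference, at 41.0 and 33.2 CPM (log2 ratio -0.31, -0.50 to -0.11).

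The somatic classes pointed the same way for Gid4 from far fewer molecules. Leydig cells had 31 UMIs in WT and 167 in KO, or 29.9 and 16.3 CPM, a log2 ratio of -0.88 (-1.44 to -0.27). Sertoli cells had 24 and 103 UMIs, or 52.1 and 22.1 CPM, a log2 ratio of -1.24 (-1.89 to -0.53). In WT Gid4 was at its highest in spermatids, and the 20 elongating spermatid markers summed to 157977 CPM in WT and 33349 CPM in KO Sertoli cells, and to 15962 and 12128 CPM in Leydig cells, with none at 0. Their part in the somatic Gid4 ratios was not tested. Spermatogonia were close to even, at 49.1 CPM in WT and 45.0 in KO, and the interval of the ratio (-0.47 to 0.23) included 0. Early spermatocytes held 8 and 36 UMIs of Gid4, too few for a ratio under the minimum, and their levels of 28.5 and 41.1 CPM had overlapping intervals.

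By cluster, Gid4 was lower in KO in all 14 clusters where it was counted, and the interval lay below 0 in 11 of them. Clusters of 1 library are not replicates of a genotype. Of 2839 genes counted in at least 14 clusters, 5.21% were lower in every counted cluster and 2.5% were higher in every one. The cluster log2 ratios ran from -1.24 in Sertoli cells to -0.13 in spermatogonia, with a median of -0.44. At the WT makeup the log2 ratio was -0.46 (-0.53 to -0.39), a level 0.729 times that of WT.

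Atpaf2, the gene that faces Gid4 across their shared promoter windows, did not move with it. ATPAF2 is an assembly factor of the F1 part of mitochondrial ATP synthase. In round spermatids Atpaf2 had 1773 and 1380 UMIs, or 54.1 CPM (51.6 to 56.7) in WT and 49.5 CPM (46.9 to 52.2) in KO, a log2 ratio of -0.13 (-0.23 to -0.02). In late spermatocytes the levels were 41.1 and 46.1 CPM (0.17, -0.01 to 0.34), and in elongating spermatids 7.67 and 10.1 CPM (0.40, 0.07 to 0.72). The sign of Atpaf2 thus changed along the germ line while that of Gid4 was negative in these 3 classes. At the WT makeup Atpaf2 was at -0.01 (-0.09 to 0.07), an interval that did not overlap that of Gid4.

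Leydig cells were the exception for Atpaf2. It was at 19.3 CPM (20 UMIs) in WT and 8.77 CPM (90 UMIs) in KO, a log2 ratio of -1.14 (-1.85 to -0.36). It was 1 of 8 neighbours counted in Leydig cells and the 1 past 2-fold there, where the background was 11.7% lower and 18.4% in either direction. Its ratio depended on how Leydig cells were drawn, and it was -0.39 at a clustering resolution of 0.8.

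**Figure D2:**
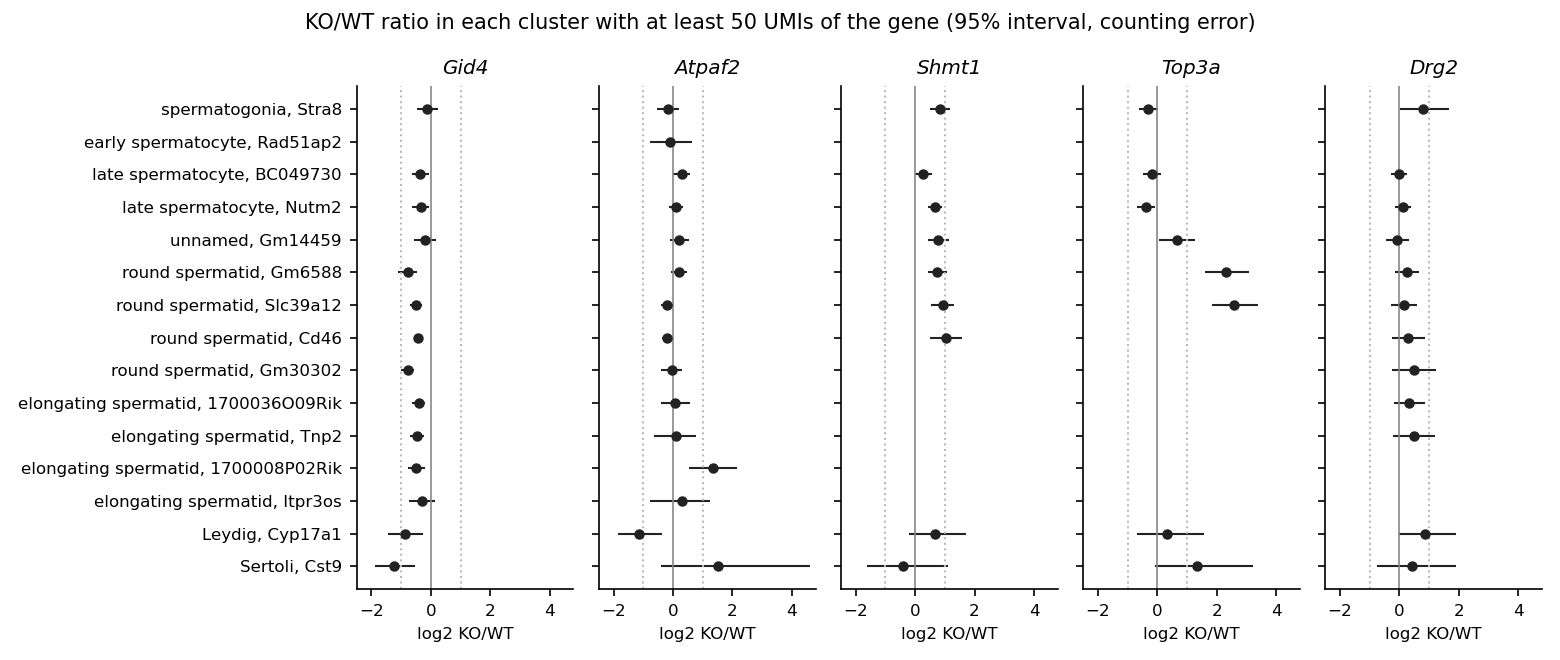
Log2 KO/WT ratio of CPM (horizontal axis) of Gid4, Atpaf2, Shmt1, Top3a and Drg2 in each of 15 clusters named by class and leading gene (vertical axis), where both libraries together held at least 50 UMIs of the gene; bars are 95% intervals for counting error and dotted lines mark 2-fold. Gid4 was below 0 throughout, Shmt1 was above 0 in 8 of 9 clusters, and Top3a was at 2.32 and 2.58 in 2 round spermatid clusters and at -0.17 and -0.38 in the 2 late spermatocyte clusters.

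Top3a stood apart in round spermatids. It encodes a topoisomerase that works with BLM helicase and RMI proteins to separate joined DNA molecules during recombination. In round spermatids it had 47 UMIs in WT and 200 in KO, or 1.43 CPM (1.05 to 1.91) and 7.18 CPM (6.22 to 8.24), a log2 ratio of 2.32 (1.86 to 2.81). It was the 1 neighbour of 7 counted in round spermatids that passed 2-fold, where the background was 6.89% higher and 8.60% in either direction. The difference was present in the cluster led by Slc39a12 (18 and 85 UMIs, log2 ratio 2.58) and in the cluster led by Gm6588 (21 and 90 UMIs, 2.32). In the cluster led by Cd46 the 7 and 19 UMIs were too few for a ratio.

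Before that stage Top3a was not higher in KO to this degree. Its levels were 59.7 CPM in WT and 48.4 CPM in KO in spermatogonia (log2 ratio -0.30, -0.62 to 0.03) and 33.6 and 27.9 CPM in late spermatocytes (-0.26, -0.48 to -0.05). The unnamed cluster was intermediate, at 8.04 and 12.6 CPM (0.65, 0.05 to 1.27). Elongating spermatids had 16 and 20 UMIs, too few under the minimum, or 0.629 and 1.48 CPM. Their log2 ratio of 1.23 had an interval (0.21 to 2.28) that overlapped that of round spermatids. Its level in round spermatids was 4.27% of that in late spermatocytes in WT and 25.7% in KO.

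Markers of other stages were read in the same round spermatid sums. The 16 late spermatocyte markers summed to 8498 CPM in WT and 8869 in KO, with none at 0 and 15 of 16 higher in KO, a log2 ratio of 0.06 for the sum. The 20 spermatogonia markers summed to 66.1 and 87.0 CPM, with 1 at 0 in WT, and the 12 Leydig markers to 10.3 and 137 CPM, with 1 at 0 in WT. In KO Leydig cells themselves Top3a was at 9.74 CPM (100 UMIs). The part of these markers in the Top3a difference was not tested. Smcr8, which starts 159 bases from Top3a on the other strand and encodes a partner of C9ORF72 in autophagy, was at 1.46 and 1.36 CPM in round spermatids, with a log2 ratio of -0.10 (-0.76 to 0.54).

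Shmt1 was at a higher level in KO in spermatogonia, late spermatocytes and round spermatids. It encodes the cytosolic serine hydroxymethyltransferase, which passes a carbon unit from serine to folate for nucleotide synthesis. In spermatogonia it was at 50.9 CPM (40.8 to 62.8; 87 UMIs) in WT and 90.3 CPM (84.0 to 97.0; 756 UMIs) in KO, a log2 ratio of 0.83 (0.51 to 1.16). In late spermatocytes the levels were 34.2 CPM (31.1 to 37.4) and 48.1 CPM (44.1 to 52.4), a log2 ratio of 0.49 (0.31 to 0.68). Round spermatids had 8.73 CPM (7.75 to 9.80) in WT and 15.5 CPM (14.04 to 17.00) in KO, again 0.83 (0.61 to 1.05). In these 3 classes the WT and KO intervals of Shmt1 did not overlap.

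Early spermatocytes held 8 and 18 UMIs of Shmt1, under the minimum, or 28.5 and 20.6 CPM, a log2 ratio of -0.47 (-1.74 to 0.94). The unnamed cluster gave Shmt1 a log2 ratio of 0.79 (0.44 to 1.14). In elongating spermatids it was near its floor, with 19 and 11 UMIs, and in Sertoli cells the 6 and 46 UMIs gave an open ratio of -0.40 (-1.63 to 1.12). Shmt1 was positive in 8 of the 9 clusters where it was counted, and the interval lay above 0 in 6 of them. Every one of these class ratios was under 2-fold, and the ratio of 1.09 in whole libraries became 0.67 (0.55 to 0.78) at the WT makeup.

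Drg2, which encodes a developmentally regulated GTP-binding protein, was under 2-fold in every single class where it was counted, with a ratio above 0 in each but the unnamed cluster (-0.07, -0.47 to 0.33). Spermatogonia held 15 UMIs in WT and 127 in KO, or 8.78 and 15.2 CPM, a log2 ratio of 0.79 (0.01 to 1.67). Leydig cells held 11 and 199, or 10.6 and 19.4 CPM, a log2 ratio of 0.87 with an interval that reached 0 at its lower end and 1.90 at its upper end. These were its largest ratios in a counted class, and both intervals were wide. Its levels were 37.4 CPM in WT and 40.1 CPM in KO in late spermatocytes (log2 ratio 0.10, -0.09 to 0.29), 8.67 and 10.3 in round spermatids (0.25, 0.01 to 0.50) and 6.29 and 8.86 in elongating spermatids (0.49, 0.14 to 0.84). It was positive in 10 of 12 counted clusters, and the interval lay above 0 in 1 of them. In elongating spermatids the median of all genes was itself 0.18, which also bears on the ratios of Gid4 and Atpaf2 there. At the WT makeup its log2 ratio was 0.18 (0.06 to 0.31), close to the median of 0.11 over all genes.

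Llgl1, Tom1l2 and Mief2 had too few UMIs for a ratio in every germ cell class after spermatogonia. Llgl1, which encodes a cell polarity protein, had 11 UMIs in WT and 101 in KO spermatogonia, or 6.44 CPM (3.21 to 11.5) and 12.1 CPM (9.83 to 14.7), with a log2 ratio of 0.91 (0.01 to 1.95). These spermatogonia held 101 of its 178 KO UMIs, and it had 18 UMIs in the whole WT library. Its intervals overlapped between the libraries, and spermatogonia were the 1 single class in which it was counted. Its weighted ratio of 1.33 rested on those 18 WT molecules.

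Tom1l2, a VHS-domain protein of endosomal sorting, reached the minimum in 2 single classes, both somatic. Germ cells held 21 of its 33 UMIs in WT and 80 of 235 in KO. Sertoli cells held 5 UMIs of it in WT and 108 in KO (10.9 and 23.2 CPM, log2 ratio 1.10, -0.17 to 2.75), and Leydig cells held 6 and 44 (5.78 and 4.29 CPM, -0.43, -1.67 to 1.09). In late spermatocytes 10 and 23 UMIs, under the minimum, gave 0.752 and 2.11 CPM, a log2 ratio of 1.49 (0.36 to 2.72). Elongating spermatids held 0 and 5 UMIs. The 2 counted ratios differed in sign and both intervals included 0.

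Flii, whose protein caps and severs actin filaments, had a ratio whose interval included 0 in each of the 4 single classes where it was counted. It was at 14.6 and 12.7 CPM in spermatogonia (log2 ratio -0.21, -0.85 to 0.48) and at 22.2 and 21.1 CPM in Leydig cells (-0.07, -0.69 to 0.62). Sertoli cells held 6 and 98 UMIs, or 13.0 and 21.1 CPM, a log2 ratio of 0.69 (-0.48 to 2.17). Round spermatids had 31 and 22 UMIs (0.946 and 0.789 CPM, -0.26, -1.12 to 0.57).

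Mief2, a receptor on the outer mitochondrial membrane that recruits the fission protein DRP1, was sparse as well. Leydig cells were the 1 class in which it was counted, at 4 and 65 UMIs or 3.86 and 6.33 CPM (log2 ratio 0.72, -0.71 to 2.63). Spermatogonia held 5 and 42 of its UMIs, and elongating spermatids held 0 in both libraries. Smcr8 had 43 UMIs in late spermatocytes of each library, or 3.23 and 3.94 CPM (0.28, -0.36 to 0.93), and was at 0.08 (-0.27 to 0.43) at the WT makeup.

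**Figure D3:**
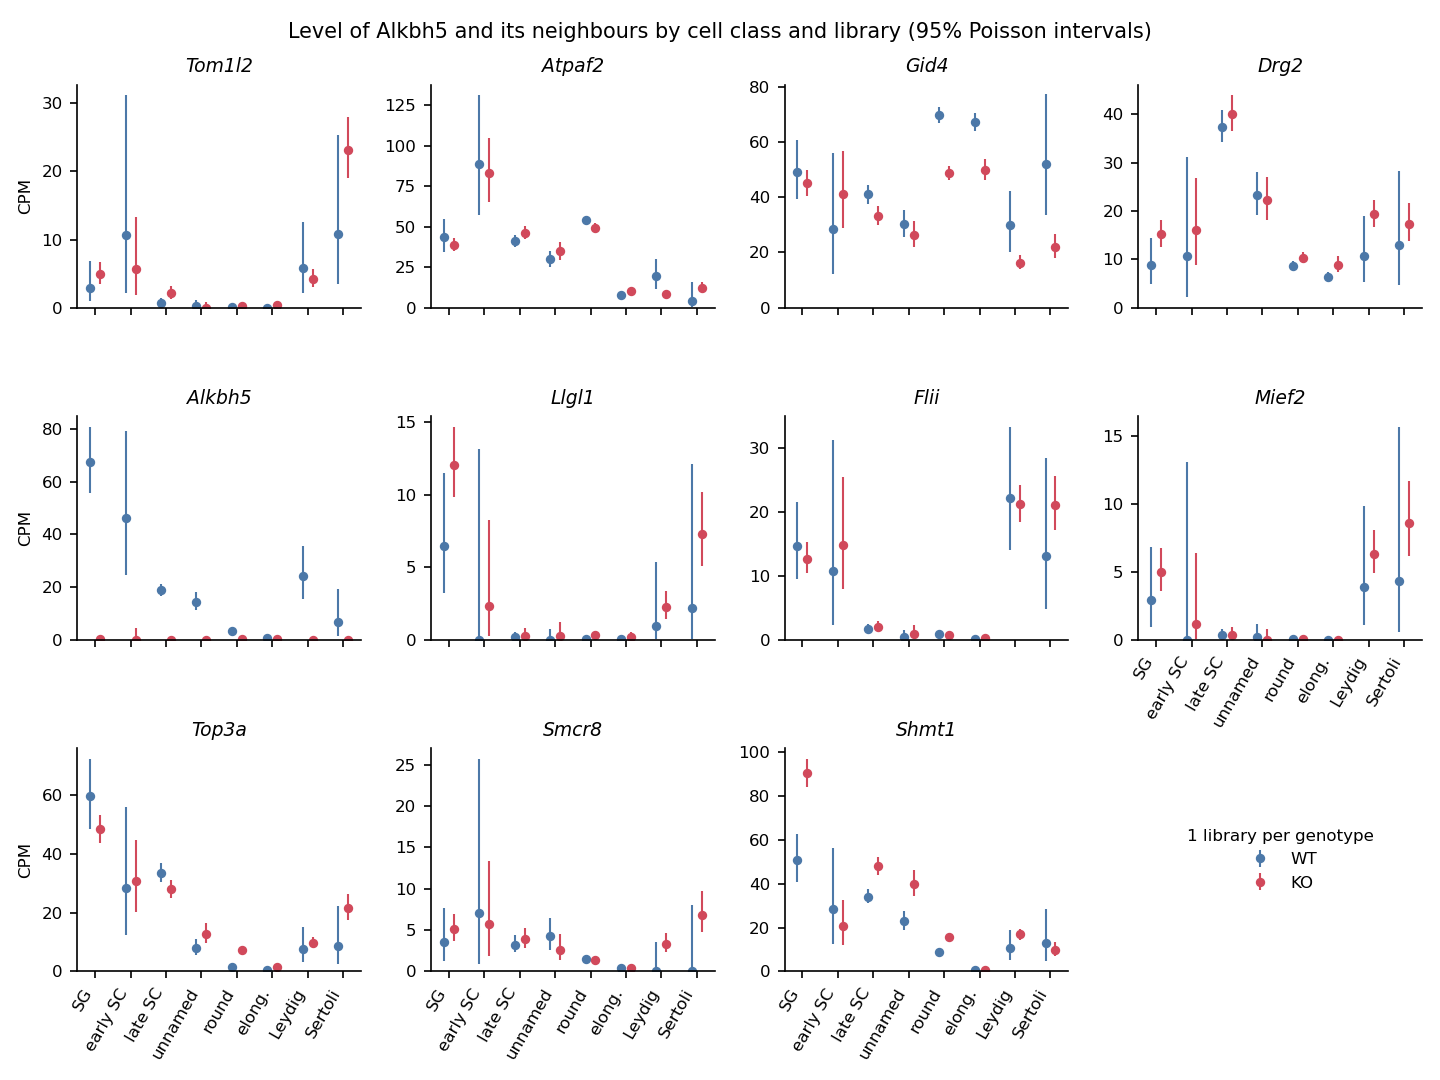
CPM (vertical axes, linear from 0) of Alkbh5 and its 10 neighbours in 8 cell classes (horizontal axes) in the WT (blue) and KO (red) library, with exact Poisson 95% intervals; SG are spermatogonia, SC spermatocytes, round and elong. the spermatids, and unnamed the cluster led by Gm14459. Alkbh5 was near 0 in KO in each class, Gid4 was lower in KO spermatids (48.7 against 69.7 CPM in round spermatids), and Shmt1 was higher in KO spermatogonia (90.3 against 50.9 CPM).

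The number of neighbours past 2-fold was also read by class. In spermatogonia 7 neighbours were counted and 0 passed (background 10.1% in either direction), in late spermatocytes 0 of 6 (5.17%), in the unnamed cluster 0 of 5 (3.42%), in elongating spermatids 0 of 3 (12.2%) and in early spermatocytes 0 of 1 (6.22%). Macrophages and endothelial cells had too few UMIs of any neighbour. In all germ cells pooled, 5 of 10 passed, each higher, against a background of 22.7% higher; germ cells too differ in their makeup between the libraries. Among single germ cell classes, Top3a in round spermatids was the 1 value past 2-fold. With so few neighbours counted in a class, a count of 0 cannot be told from these backgrounds.

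Sertoli cells gave 4 neighbours past 2-fold of 7 counted, Atpaf2 (1.52), Top3a (1.32) and Tom1l2 (1.10) higher and Gid4 lower. There the background was 54.4% in either direction and the median log2 ratio of all genes was 0.82. The elongating spermatid markers given above for Sertoli cells stand beside all 4 of these ratios. Of the 4 neighbours, Gid4 was the 1 whose interval excluded 0.

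The neighbourhood was then widened by distance, at the WT makeup. Within 1 Mb of Alkbh5, 65 genes were in the tables and 44 were counted, of which 6 were at least 2-fold higher and 0 were lower, or 13.6%. Over all genes the share was 7.14% higher and 8.61% in either direction. With the 10 neighbours left out it was 4 of 34 genes, or 11.8%. Besides Llgl1 and Tom1l2 these were 1810063I02Rik (log2 ratio 1.63), Rasd1 (1.43), Gm16062 (1.23) and Slc47a1 (1.18). In the WT library Rasd1 had 170 UMIs and Gm16062 had 78. The others rested on few WT molecules, with 33 for Tom1l2, 18 for Llgl1, 13 for Slc47a1 and 6 for 1810063I02Rik. The intervals of Slc47a1 (0.27 to 2.10) and 1810063I02Rik (0.41 to 2.85) were wide. The median over the 44 genes was 0.13, close to the 0.11 over all genes. Inside the span of the 10 neighbours also lie Drc3 at -0.47 (-0.57 to -0.38) and Myo15 at 0.44 (0.15 to 0.74).

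Farther out, from 1 to 5 Mb on both sides, 24 of 102 counted genes were past 2-fold, 14 higher and 10 lower, or 23.5%. These lay mostly on one side, and the narrower stretch given next was drawn after the values were seen. From 1 to 3 Mb towards lower coordinates, 20 of 55 counted genes were past 2-fold, 12 higher and 8 lower, or 36.4%. From 1 to 3 Mb towards higher coordinates it was 3 of 34, or 8.82%, and in the rest of chromosome 11 beyond 5 Mb it was 6.86%. Whole autosomes, with 449 to 1584 counted genes each, ranged from 4.68% to 9.003%. On the X chromosome 323 of 879 counted genes were past 2-fold, 317 higher and 6 lower, or 36.7%. Other stretches as short as that of 1 to 3 Mb were not examined, so their range is not known. Some of its genes past 2-fold had few UMIs in 1 library, such as Gm12248 (4 in WT and 167 in KO) and Olfr313 (53 and 9). The share at least 2-fold lower in KO, 1.46% over all genes, was 14.5% in the stretch of 1 to 3 Mb on the lower side and at most 2.53% on any autosome. The median log2 ratio of those 55 genes was -0.01, compared with 0.11 over all genes. Whether the spread of the stretch was unusual for its length was not tested.

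Between 1 and 5 Mb from Alkbh5, 5 of the genes past 2-fold had at least 800 UMIs in 1 library, and they were chosen as examples after their values were seen. Galnt10, a glycosyltransferase gene 2.75 Mb away, had 1848 UMIs in WT and 371 in KO, a log2 ratio of -2.46 (-2.65 to -2.27) at the WT makeup. 1810065E05Rik, 2.11 Mb away, had 1673 and 156 (-3.24, -3.48 to -2.99). Hist3h2a, a histone H2A gene 1.58 Mb away, had 836 and 2056 (1.49, 1.37 to 1.61). The antisense RNA gene 4933426K07Rik, 2.88 Mb away, had 430 and 1455 (2.13, 1.97 to 2.29), although reads of an antisense gene and its partner may not be told apart here. On the other side, Akap10, an anchor of protein kinase A 1.31 Mb away, had 5940 and 2603 (-1.06, -1.13 to -0.99). The source of the differences, near or far, was not tested, and an effect of the deletion in cis, DNA of another strain and loss of ALKBH5 cannot be told apart with 1 library per genotype.

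**Figure D4:**
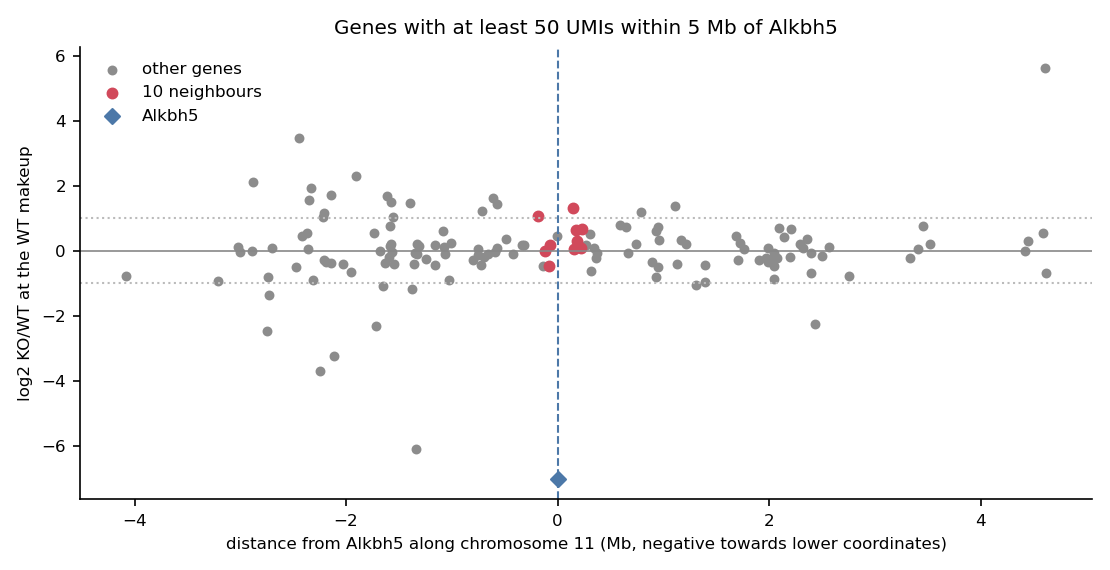
Log2 KO/WT ratio at the WT makeup (vertical axis) against distance from Alkbh5 along chromosome 11 in Mb (horizontal axis, negative towards lower coordinates) for genes with at least 50 UMIs; red circles are the 10 neighbours, grey circles 136 other genes and the blue diamond Alkbh5. The neighbours lie between -0.46 and 1.33, and the widest scatter is from 1 to 3 Mb on the lower side, where 20 of 55 genes were past the dotted 2-fold lines.

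Known partners of the 10 proteins, encoded elsewhere in the genome for the most part, were read as a second list. All 38 listed partners were counted at the WT makeup; 20 were positive, 18 were negative and 0 passed 2-fold, where 62.8% of all 21037 counted genes were positive and 8.61% passed 2-fold in either direction. Of 10 other subunits or regulators of the GID/CTLH ligase, 6 were positive and 4 negative, from -0.39 (Rmnd5a) to 0.17 (Ranbp10). The ratio of Gid4 at -0.46 was below each of these values. Its interval (-0.53 to -0.39) nevertheless overlapped those of Rmnd5a (-0.58 to -0.21) and Rmnd5b. Top3a's partners ran from -0.19 (Rmi2) to 0.23 (Rmi1), Atpaf2's from -0.38 (Atpaf1) to 0.23 (Atp5a1), and Mief2's from -0.23 (Fis1) to 0.09 (Mff). Mthfd1, an enzyme of folate metabolism listed beside Shmt1, was the lowest of all the partners at -0.57. It was the 1 negative partner of the 4 listed beside Shmt1, and the other 3 were positive. The median of the 38 was 0.03.

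Across clusters the 10 neighbours did not share 1 pattern. Over 33 cluster sums of both libraries, which share libraries and depth, Flii and Tom1l2 had the closest pair of profiles (Pearson's r = 0.894 of log2(CPM + 1)), followed by Top3a and Shmt1 (0.810). Gid4 had a negative coefficient with each of the other neighbours, from -0.583 with Drg2 to -0.050 with Atpaf2. Among 10115 genes with at least 1000 UMIs, the profiles most like Gid4 were Gtpbp2 (0.811) and Npm3-ps1 (0.766), and those most like Top3a were Ppig (0.949) and Sae1 (0.946). For Shmt1 they were Bbs4 (0.942) and Incenp (0.937), for Atpaf2 Btbd10 (0.920) and Ect2 (0.918), and for Drg2 Iqcc (0.911) and Bin3 (0.900). For Flii they were Secisbp2l (0.972) and Add1 (0.970), for Mief2 Slc30a2 (0.945) and Unc119 (0.935), for Smcr8 Hus1 (0.868) and Cnot9 (0.845), for Llgl1 D10Wsu102e (0.913) and Spin1 (0.908), and for Tom1l2 mt-Tq (0.947) and P4ha1 (0.945).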

How the data were processed

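Per the labels and the study's methods, libraries were made with the GEXSCOPE kit, which reads mRNA from its poly A tail, and the authors aligned reads with STAR 2.5.3a and assigned them with featureCounts 1.6.2, so that the deposited values are raw UMI counts without normalization. The methods name GRCh38, a human build, although the symbols are those of the mouse; positions were taken from GENCODE vM21 on GRCm38 by symbol, matching 35502 of 36547. Cells with over 500 genes (all barcodes) were integrated in Seurat 5.3.0 under R 4.3.3 with 2000 features, 20 anchor dimensions, 30 principal components and resolution 0.3. A cluster was named from at least 3 markers found in 10% of its cells at 2-fold, and names here are rebuilt. Possible doublets were kept; Scrublet in scanpy 1.11.5 called 4.22% of WT and 4.96% of KO barcodes. Sums, exact Poisson intervals and exact conditional intervals of ratios were computed in Python 3.11.15 with scipy 1.17.1. Intervals at the WT makeup are normal approximations on the log scale. The code was run on simulated Poisson counts. These hold counting error alone, so they cannot show how the intervals fare with variation between cells or libraries. Distances run between the nearest ends of 2 genes. Cells are not replicates, so no test between genotypes was made. Named were the 10 genes, their partners, up to 5 other genes per direction past 2-fold within 1 Mb, and the 2 closest profiles of each. The value of 1 listed partner is not reported here. The members and lists were chosen with earlier results of these data known.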

Additional observations from a re-analysis of the deposited data

Results flagged for a closer look

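In 2 of the 8 neighbours counted in at least 2 single cell classes the ratio pointed in opposite directions in 2 of them, with intervals clear of 0 in both. The same was true of 19.3% of the 15452 genes so counted, so the share among the neighbours was near that of all genes. Top3a had a log2 KO/WT ratio of 2.32 in round spermatids and of -0.26 in late spermatocytes. Atpaf2 was at 0.40 in elongating spermatids and at -1.14 in Leydig cells. The median of all genes in elongating spermatids was 0.18, and Atpaf2 in Leydig cells was at -0.39 at a clustering resolution of 0.8. Each value compares 1 WT with 1 KO library, so the difference between classes was not tested.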

How the results depend on the processing

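No neighbour past 2-fold changed its direction under an alternative that gave it a value. Of 622 counted ratios recomputed, 12 changed sign, 5 of them with a main interval clear of 0; among the 12 were Smcr8 in round spermatids (-0.10, or 0.52 without integration) and Atpaf2 in pooled germ cells (0.15, or -0.14 after centring). Top3a in round spermatids stayed past 2-fold in 10 of 10 alternatives, between 2.28 and 2.71, and Gid4 in Sertoli cells in 9 of 9. The number of neighbours past 2-fold in whole libraries was 5. It was 2 with equal weight per cluster, 2 at the WT makeup and 8 at a 1.5-fold criterion. The first 2 counts held different genes, since Tom1l2 fell to 0.40 with equal weight and Mief2 to 0.65 at the WT makeup. In pooled germ cells the number past 2-fold was 1 with equal weight per cluster, where Tom1l2 was at 0.08. It was 3 after centring on the median of all genes, which also gave 2 in Sertoli cells. With a minimum of 20 UMIs it was 1 in late spermatocytes, 1 in elongating spermatids, 2 in Leydig cells and 1 in macrophages. With no minimum it was 1 in late spermatocytes, 1 in the unnamed cluster, 4 in round spermatids, 4 in elongating spermatids, 2 in Leydig cells and 2 in macrophages. At 1.5-fold it was 3 in spermatogonia, 2 in the unnamed cluster, 2 in round spermatids and 5 in Leydig cells. Without called doublets it was 1 in spermatogonia and 2 in Leydig cells, and with over 1000 genes per cell 0 in Leydig cells. Resolution 0.8 gave 1 in spermatogonia and 0 in Leydig cells. Without integration it was 1 in spermatogonia, 1 in the unnamed cluster, 2 in round spermatids, 0 in Leydig cells and 2 in Sertoli cells. Within 1 Mb of Alkbh5, 16 of 44 counted genes (36.4%) passed 2-fold in whole libraries, near the 33.4% of all genes. At the WT makeup it was 6 (13.6%, against 8.61% of all genes). In whole libraries it was 8 (36.4%) within 0.5 Mb and 33 (36.3%) within 2 Mb. The number within 1 Mb was 7 with equal weight per cluster and 26 at 1.5-fold. A lower minimum admits genes on few UMIs, and the cause of the other shifts was not tested. Apart from the WT makeup and the other windows, the alternatives are given without the share of all genes at the same setting. Their counts therefore show how the number moved, and not whether it exceeded that share. Depth limits Llgl1, Mief2 and Tom1l2 most, with 17 to 33 UMIs each in the whole WT library.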
